A study of Mus with 21 samples.

Results

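Dmrt2, Dmrt3, Dmrta1 and Dmrta2 are 4 of the 55335 genes counted in E17.5 mouse brain libraries, and all 4 passed the filter on low counts. They were picked by gene name. Dmrt2 was the starting point because its counts were lower in Nipbl+/- and in double heterozygous brains than in wild-type (WT) brains. The other 3 are its relatives known from the developing brain. The differences of the 4 genes in those 2 contrasts are therefore given as descriptions without P values. Any other comparison that sets a Nipbl-mutant group against a group with 2 functional Nipbl alleles is treated likewise for Dmrt2.

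Poly(A) RNA was sequenced from whole brains of female embryos at E17.5, with 1 library per brain. The question was how halved doses of Nipbl, of Wapl or of both genes change brain transcription. The 4 groups were WT (Wapl +/+; Nipbl +/+, n = 5), Nipbl+/- (Wapl +/+; Nipbl +/-, n = 3), Wapl Δ/+ (1 deleted Wapl allele, Nipbl +/+, n = 7) and the double heterozygote (1 deleted Wapl allele and Nipbl +/-, n = 6). NIPBL loads the cohesin ring on chromosomes and WAPL releases it. The Wapl Δ allele lacks the promoter and exons 1 and 2 after recombination by the E2a-Cre transgene, and it was carried in every tissue. The Nipbl- allele arose in the germ line of sires that carried Nipbl Flox and the Stra8-icre transgene, so it too was present throughout the embryo. No group received a treatment, and the Wapl Δ line had been backcrossed to C57BL/6J.

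DMRT proteins are transcription factors that bind DNA through the DM domain, a zinc finger motif first described in the sex determination genes doublesex and mab-3. In the embryonic forebrain Dmrta2 (also called Dmrt5), Dmrt3 and Dmrta1 (also called Dmrt4) are transcribed in progenitors of the dorsal telencephalon, where Dmrta2 and Dmrt3 help to set up the cortical hem and act with Emx2 in patterning the cortex. Dmrt3 also marks the dI6 class of spinal interneurons, and Dmrta2 is used by progenitors of the ventral midbrain. Dmrt2 is best known outside the brain, in the dermomyotome of the somite, where it acts upstream of the muscle regulator Myf5.

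The libraries held between 25682566 and 35818767 counts, with a median of 31830396. The targeted genes followed the labels. Mean normalized counts of Nipbl were 2166 in WT, 1176 in Nipbl+/- and 1187 in double heterozygous libraries. Wapl stood at 1492 in WT, 697 in Wapl Δ/+ and 736 in double heterozygous libraries. The 11 markers of brain identity summed to between 4809 and 5492 CPM (counts scaled to one common library total) in all 21 libraries. Some libraries stood apart. The transcript mt-Nd3 had at least 52 counts in 9 libraries (2 WT, 5 Wapl Δ/+ and 2 double heterozygotes) and at most 6 in the other 12, which hold all 3 Nipbl+/- libraries. The genotype labels write the Wapl deletion first in 2 Wapl Δ/+ and 4 double heterozygous libraries and second in the other 5 and 2. The labels do not say what that order means. In the paper's weanling tables of its Nipbl crosses, the deletion is written first if carried by the dam and second if by the sire. Whether the sample labels follow that use is not given. The order coincides with the mt-Nd3 sets in both groups, so the order and the sets cannot be told apart there. The 15 skeletal muscle markers were elevated in WT replicate 3 (103.9 CPM), Wapl Δ/+ replicate 4 (83.5 CPM), Nipbl+/- replicate 3 (71.5 CPM), and double heterozygote replicates 1 (46.3 CPM) and 3 (87.7 CPM). All other libraries were at or below 28.9 CPM. Pituitary markers were elevated in WT replicate 2 (97.9 CPM) and double heterozygote replicate 6 (51.8 CPM).

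The levels below are normalized counts: the reads counted for a gene in a library, scaled by the TMM factor to the average library. They compare 1 gene between libraries and not 1 gene with another, since transcript length was not taken into account.

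Dmrt2 had a mean of 46.4 ± 8.88 normalized counts in WT (SD, n = 5), 13.8 ± 1.61 in Nipbl+/- (n = 3), 47.1 ± 7.80 in Wapl Δ/+ (n = 7) and 20.2 ± 4.56 in double heterozygotes (n = 6). Nipbl+/- brains thus held 29.7% of the WT mean, double heterozygous brains 43.5% and Wapl Δ/+ brains 101.4%. The 5 WT libraries read 45.7, 33.9, 58.9, 47.5 and 46.0 normalized counts. The 3 Nipbl+/- libraries read 11.9, 14.6 and 14.8. The double heterozygotes ran from 13.1 through a median of 19.8 to 25.9, and the Wapl Δ/+ libraries from 37.7 through 44.9 to 55.8. Every library with a mutant Nipbl allele lay below every library without one, and within each of these pairs of genotypes the ranges overlapped. In order of level, Nipbl+/- and double heterozygous brains were neighbours at the low end, and WT and Wapl Δ/+ brains were neighbours at the high end. In bulk tissue, fewer cells of a type and less RNA per cell cannot be told apart.

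**Figure D1:**
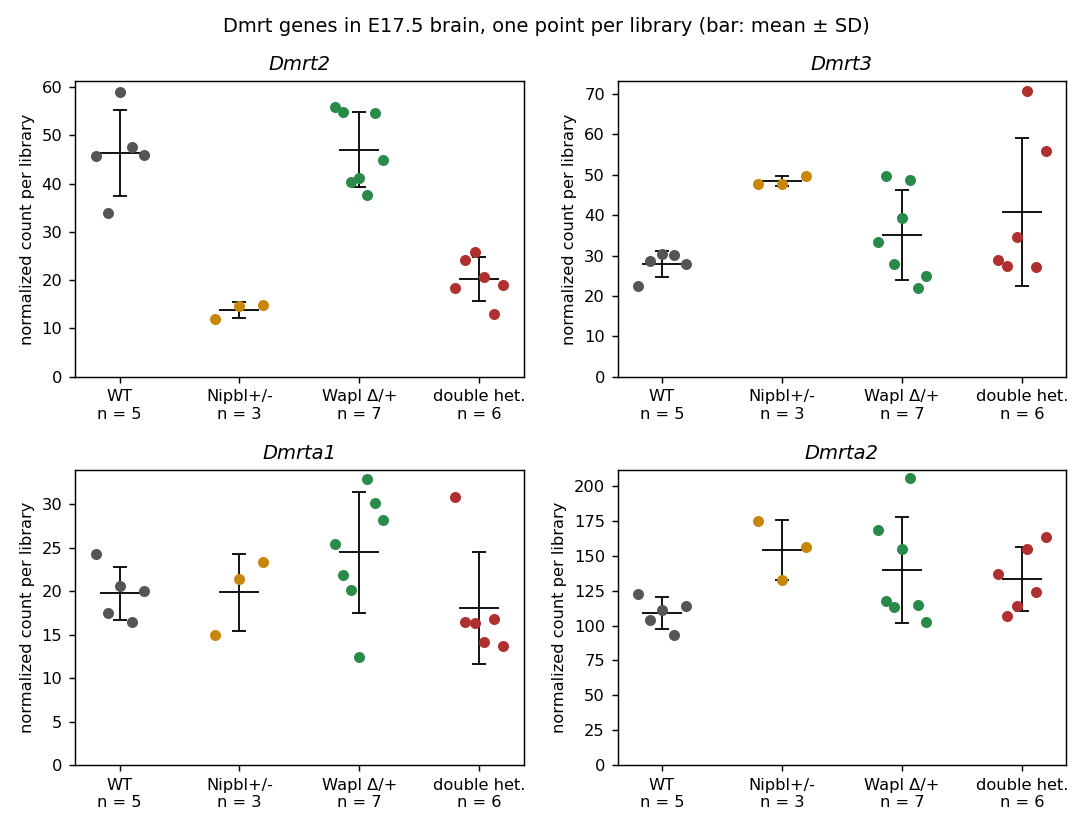
Normalized count (vertical axis, reads scaled to the average library) of Dmrt2, Dmrt3, Dmrta1 and Dmrta2 in each of the 21 libraries, by genotype; each point is 1 brain and each bar is the group mean ± SD. Dmrt2 lies between 11.9 and 25.9 in the 9 libraries with a mutant Nipbl allele and between 33.9 and 58.9 in the other 12, while the ranges of Dmrta1 overlap in all groups.

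The fitted log2 fold change of Dmrt2 was -1.75 (SE 0.226) in Nipbl+/- and -1.19 (SE 0.179) in double heterozygotes, both against the same 5 WT libraries. Across the 30552 genes tested, 6.96% were called lower in Nipbl+/- than in WT and 2.46% lower in double heterozygotes. The share of genes whose libraries all lay below all WT libraries was 6.90% for Nipbl+/- and 2.29% for double heterozygotes. Dmrt2 belongs to each of these sets because it was chosen for them.

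The difference was also read in subsets without some of the libraries that stood apart. The libraries with elevated pituitary markers were not left out as a set. In the low mt-Nd3 libraries alone the fold change was -1.74 in Nipbl+/- and -1.04 in double heterozygotes. In the high mt-Nd3 set, which holds no Nipbl+/- library, Dmrt2 read 47.5 and 46.0 normalized counts in the 2 WT libraries and 13.1 and 19.0 in the 2 double heterozygotes. The highest Dmrt2 value of WT (58.9), of Nipbl+/- (14.8) and of the double heterozygotes (25.9) was in each case found in a library with elevated skeletal muscle markers. Double heterozygote replicate 1, also elevated, read 18.3, below its group's median of 19.8, and the elevated Wapl Δ/+ library read 41.3, below its group's median of 44.9. Without the 5 libraries of that kind the fold change was -1.69 in Nipbl+/- and -1.18 in double heterozygotes.

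Wapl Δ/+ brains held Dmrt2 at 101.4% of the WT mean. The log2 fold change was 0.03 (SE 0.147, 95% interval -0.28 to 0.33), with an adjusted P of 0.956 by edgeR's quasi-likelihood test with Benjamini-Hochberg adjustment over all genes tested. The interval leaves room for changes of either sign. The WT libraries had served in choosing Dmrt2, so the interval and the P value rest in part on values that chose it. The size seen with the Nipbl- allele was itself chosen, so the interval is not set against it. In the same comparison none of the 4 Dmrt genes was called, against 2.22% of all genes.

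The comparison of double heterozygous with Nipbl+/- brains asked what the Wapl deletion adds where 1 Nipbl allele is lost. The 6 double heterozygotes averaged 20.2 normalized counts against 13.8 in the 3 Nipbl+/- brains, and 5 of the 6 exceeded the highest Nipbl+/- library (14.8). The fitted difference was 0.55 on the log2 scale (SE 0.254, 95% interval 0.01 to 1.09) with an unadjusted P of 0.0476 and an adjusted P of 0.971 by edgeR, so the gene did not pass the test. Both groups had already served in choosing Dmrt2, so the interval and both P values rest on values that chose it, and the difference is a description. In this comparison 2 genes were called, or 0.00655% of those tested. At these counts the error of counting alone is large: its SD was 3.73 normalized counts in Nipbl+/- and 4.53 in double heterozygotes.

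The reverse step, a Nipbl- allele added to Wapl Δ/+ brains, took Dmrt2 from 47.1 to 20.2 normalized counts, with a log2 fold change of -1.22 (SE 0.164). Nipbl+/- brains set against Wapl Δ/+ brains differed by -1.77 (SE 0.212) on the same scale. No library of one group reached the range of the other in either comparison, and such full separation downward was seen for 0.717% of all genes in the first and 1.94% in the second. Dmrt2 was chosen for its low values in the groups with a mutant Nipbl allele, so its separation here is a description. A test asked whether the change with both alleles departed from the sum of the single changes. For Dmrt2 the interaction was 0.49 (SE 0.288) on the log2 scale, given without a P value because the contrasts that chose Dmrt2 enter it. None of the 30552 genes passed that test in edgeR, while 4221 had an unadjusted P under 0.05 and DESeq2 called 793. With 1 library left out edgeR called 945 without double heterozygote replicate 6, 253 without Wapl Δ/+ replicate 2 and 0 without any of the other libraries.

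**Figure D2:**
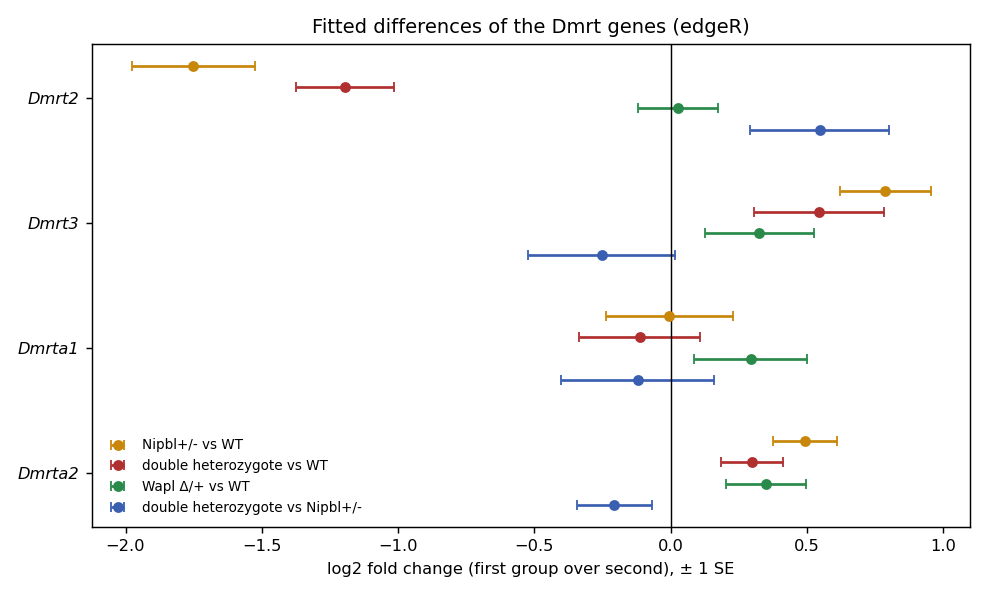
Fitted log2 fold change (horizontal axis; first group over second) of each Dmrt gene in 4 comparisons, with bars of ± 1 SE from edgeR. Dmrt2 is at -1.75 and -1.19 in the 2 contrasts that chose it and at 0.03 in Wapl Δ/+ against WT, and Dmrt3 and Dmrta2 are above 0 in all 3 contrasts with WT.

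Dmrt2 and Dmrt3 are neighbours on chromosome 19. In the RefSeq annotation of GRCm38.p6 Dmrt3 (ENSMUSG00000042372) spans chr19:25610246-25623921 and Dmrt2 (ENSMUSG00000048138) spans chr19:25672394-25679013. They lie 48.47 kb apart with no other protein-coding gene between them. Dmrt1, the testis sex determination factor of the family, lies on the far side of Dmrt3 at chr19:25505618-25604328, and Kank1, which codes for a regulator of the actin cytoskeleton, follows it. On the other side the nearest protein-coding gene is Smarca2, an ATPase of chromatin remodelling complexes, 926.1 kb away.

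Dmrt3 was high in Nipbl+/- brains, where its neighbour was low. It averaged 27.9 ± 3.24 normalized counts in WT (n = 5) and 48.4 ± 1.23 in Nipbl+/- (n = 3), or 173.2% of the WT mean. The WT libraries read 22.4, 28.7, 30.4, 30.1 and 28.0, and the Nipbl+/- libraries read 47.7, 47.6 and 49.8, so the groups did not overlap, and 6.54% of all genes were separated upward in this way. On the log2 scale Dmrt3 was 0.79 higher (SE 0.166). The spread among the 3 Nipbl+/- libraries was narrower than the SD of 6.99 that counting alone gives, so it understates the error of Dmrt3 in that group.

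In the other mutants Dmrt3 scattered widely. The Wapl Δ/+ libraries averaged 35.1 ± 11.2 normalized counts (n = 7) and ran from 21.9 through a median of 33.5 to 49.8. Against WT this was a log2 fold change of 0.33 (SE 0.201, adjusted P = 0.458 by edgeR). Double heterozygotes averaged 40.8 ± 18.3 (n = 6). Replicates 4 and 6 were high, at 70.8 and 55.8, and the other 4 lay between 27.1 and 34.5. Their log2 fold change against WT was 0.54 (SE 0.238), and 0.32 without replicate 4. Replicate 4 belongs to the low and replicate 6 to the high mt-Nd3 set. Double heterozygotes differed from Nipbl+/- brains by -0.25 (SE 0.271, adjusted P = 0.972) and from Wapl Δ/+ brains by 0.22 (adjusted P = 0.836), both by edgeR. Nipbl+/- brains differed from Wapl Δ/+ brains by 0.47 (SE 0.225, 95% interval -0.01 to 0.95, adjusted P = 0.491 by edgeR). The order of means was WT, Wapl Δ/+, double heterozygote and Nipbl+/-, and only WT and Nipbl+/- were apart beyond the spread of the libraries.

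The share of Dmrt2 among the counts of both neighbours is a ratio within each library that does not depend on depth or scaling. It was 62.1 ± 5.11% in WT (n = 5, range 54.1% to 67.1%), 57.8 ± 9.34% in Wapl Δ/+ (n = 7, range 43.7% to 71.4%), 34.8 ± 9.67% in double heterozygotes (n = 6, range 22.6% to 46.8%) and 22.1 ± 1.86% in Nipbl+/- (n = 3, range 20% to 23.4%). Dmrt2 was the larger count in every WT library and the smaller in every library with a mutant Nipbl allele. Each library contributed between 43 and 105 reads for both genes together. The 95% Wilson interval of a single library was therefore broad, for example 50.3% to 71.2% in WT replicate 4 and 33.3% to 60.8% in double heterozygote replicate 2, and it covers counting error only. Wapl Δ/+ differed from WT by -4.33 percentage points (exact permutation test, two-sided, P = 0.3725 over 792 assignments). The WT libraries of this test had also served in choosing Dmrt2. Double heterozygotes exceeded Nipbl+/- by 12.7 points. Both groups had served in choosing Dmrt2, so no P value is given for this difference. The third comparison, of double heterozygotes with Wapl Δ/+, differed by -23.0 points and is likewise given without a P value. The order of the groups by share was the same as by Dmrt2 level, with the exception of Wapl Δ/+ and WT, which exchanged places.

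**Figure D3:**
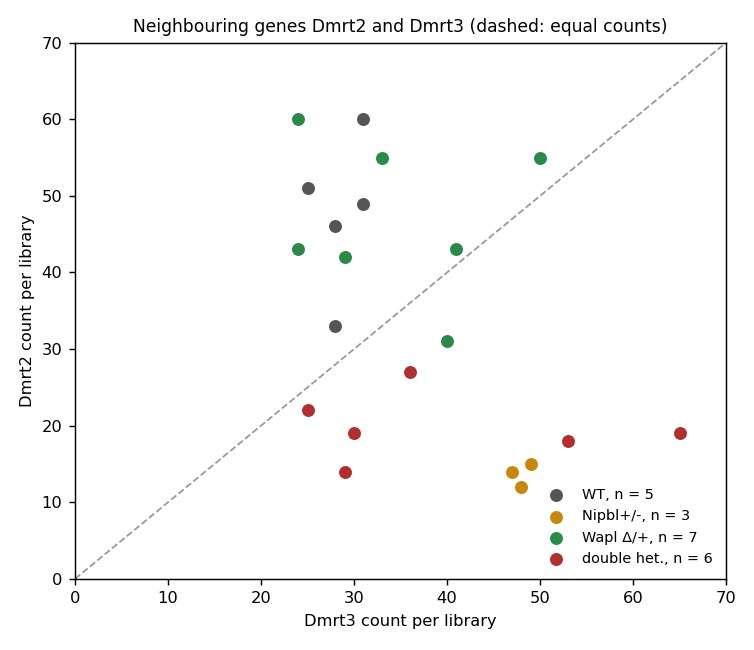
Raw counts of Dmrt2 (vertical axis) against Dmrt3 (horizontal axis) in each of the 21 libraries, with 1 point per brain coloured by genotype and a dashed line where both counts are equal. All 5 WT points lie above the line, where Dmrt2 makes up 54.1% to 67.1% of both counts, and all 9 points with a mutant Nipbl allele lie below it.

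Of the other genes around this pair, Kank1 was lower in Nipbl+/- brains, at 431 against 513 normalized counts in WT. Its log2 fold change was -0.26 (SE 0.0620, adjusted P = 0.0152 by edgeR, lower in 3 of 3 libraries), beside 6.96% of all genes called lower in that contrast. Kank1 was not called in Wapl Δ/+ (-0.06, adjusted P = 0.564) or in double heterozygotes (-0.10, adjusted P = 0.311), both by edgeR. Smarca2 differed from WT by -0.05 in Nipbl+/-, -0.06 in Wapl Δ/+ and -0.11 in double heterozygotes, none of them called by edgeR. Dmrt1 had 20 counts in all 21 libraries together and at most 3 in any of them, and it was not called.

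Dmrta2 (ENSMUSG00000047143, chr4:109977989-109983691) had the most counts of the 4 genes, between 96 and 176 in every library. Its mean was 108.9 ± 11.2 normalized counts in WT (n = 5), 154.3 ± 21.4 in Nipbl+/- (n = 3), 139.5 ± 37.9 in Wapl Δ/+ (n = 7) and 133.3 ± 22.6 in double heterozygotes (n = 6). The WT libraries read 122.8, 103.6, 110.9, 93.1 and 114.0, and the Nipbl+/- libraries read 175.0, 132.2 and 155.8, without overlap. The Wapl Δ/+ libraries ran from 102.3 through a median of 117.4 to 205.7, and the double heterozygotes from 106.5 through 130.5 to 163.3, both overlapping WT. Like Dmrt3, Dmrta2 had its highest mean in Nipbl+/- and its lowest in WT.

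The log2 fold change of Dmrta2 against WT was 0.49 (SE 0.117) in Nipbl+/-, 0.35 (SE 0.147) in Wapl Δ/+ and 0.30 (SE 0.113) in double heterozygotes. For Wapl Δ/+ the unadjusted P was 0.0270 and the adjusted P was 0.252 by edgeR, so the gene did not pass the test there. Double heterozygotes differed from Nipbl+/- brains by -0.21 (adjusted P = 0.971) and from Wapl Δ/+ brains by -0.05 (adjusted P = 0.947), both by edgeR. The interaction was -0.58 (SE 0.225, unadjusted P = 0.0148, adjusted P = 0.245 by edgeR), which is the largest departure from additivity of the 4 genes relative to its error. The antisense lncRNA Dmrta2os overlaps Dmrta2 over 1636 bases, and whether the counting used strand is not given in the sources used here, so reads from that stretch cannot be told apart. Dmrta2os itself differed from WT by 0.26, 0.30 and 0.27 on the log2 scale in Nipbl+/-, Wapl Δ/+ and double heterozygotes, none of them called by edgeR.

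Of the protein-coding genes nearest to Dmrta2, Faf1, which codes for a ubiquitin-binding protein 14.03 kb away, differed from WT by at most 0.01 on the log2 scale in size in the 3 mutant groups, and Cdkn2c, a cell cycle inhibitor, by 0.01, 0.23 and 0.16 in Nipbl+/-, Wapl Δ/+ and double heterozygotes. Neither was called by edgeR. On the other side, Elavl4, a neuronal RNA-binding protein, was called in double heterozygotes (log2 fold change 0.14, SE 0.0348, adjusted P = 0.0474 by edgeR), and its library ranges overlapped.

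Dmrta1 (ENSMUSG00000043753, chr4:89688198-89694766) was the scarcest of the 4, with 13 to 33 counts per library. Its mean was 19.8 ± 3.02 normalized counts in WT (n = 5), 19.9 ± 4.40 in Nipbl+/- (n = 3), 24.4 ± 6.91 in Wapl Δ/+ (n = 7) and 18.0 ± 6.39 in double heterozygotes (n = 6). WT libraries read 24.2, 17.4, 20.6, 16.5 and 19.99, and Nipbl+/- libraries read 14.9, 21.4 and 23.3. The ranges of all 4 groups overlapped. The double heterozygotes lay between 13.7 and 16.8 except for replicate 1 at 30.8, a library that also had elevated skeletal muscle markers and the highest sum of cartilage markers (427.6 CPM, against at most 309.4 CPM elsewhere).

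The log2 fold change of Dmrta1 against WT was 0.00 (SE 0.232) in Nipbl+/-, 0.29 (SE 0.208, adjusted P = 0.531 by edgeR) in Wapl Δ/+ and -0.11 (SE 0.222) in double heterozygotes. Double heterozygotes differed from Wapl Δ/+ brains by -0.41 (adjusted P = 0.582) and from Nipbl+/- brains by -0.12 (adjusted P = 0.985), both by edgeR. At this depth the SD of counting alone was 4.39 normalized counts in WT, and the detectability of a given change was not tested. Its neighbours on chromosome 4, the cell cycle inhibitors Cdkn2a and Cdkn2b and the neuronal RNA-binding gene Elavl2, were not called by edgeR in any contrast with WT.

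Counted over the 4 genes, 3 were called in Nipbl+/- against WT (Dmrt2 lower, Dmrt3 and Dmrta2 higher), and the same 3 had groups that did not overlap. The background was 11.2% of all genes called in either direction (4.25% higher and 6.96% lower) and 13.4% without overlap. In double heterozygotes against WT, Dmrt2 was the 1 gene called, beside 3.28% of all genes, and the 1 gene without overlap, beside 2.76%. Dmrt2 was chosen for its low values in both contrasts, so its calls and its separation there were fixed by that choice. In double heterozygotes against Wapl Δ/+, where 1.02% of all genes were called, and in Nipbl+/- against Wapl Δ/+, where 1.16% were, Dmrt3, Dmrta1 and Dmrta2 were not called. For Dmrt2 the differences in these contrasts are described above, and no call is counted because its low values had chosen it. The 3 contrasts with WT share the same 5 control libraries.

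Across the 21 libraries, after the group means were subtracted, the log2 CPM of Dmrt3 and Dmrta2 had a Pearson correlation of 0.56. The value for Dmrt2 and Dmrt3 was 0.03, and that for Dmrt2 and Dmrta2 was -0.24. In the double heterozygotes the 2 libraries with the highest Dmrt3 (replicates 4 and 6) also held the 2 highest Dmrta2 values, at 154.7 and 163.3 normalized counts. These are descriptions over libraries in which both genes share depth and dissection, and at such low counts a weak value says little.

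The genes of the whole table whose log2 CPM was most like that of each Dmrt gene, by the same within-group correlation over 21 libraries, were sought among those that averaged 1 CPM or more. Neurog2 was among the 5 for Dmrta2 (r = 0.90), after Ptpn1 (0.92), a protein tyrosine phosphatase, Hmgn1 (0.92), a nucleosome-binding protein, Rpa3 (0.91), a subunit of the single-stranded DNA binding complex, and Ube2r2 (0.90), a ubiquitin-conjugating enzyme. For Dmrt2 they included Map6 (0.82), a microtubule stabilizer of neurons, Rubcn (0.79), a regulator of autophagy, Mir1839 (0.79) and Ank1 (0.79), which codes for an ankyrin of the membrane skeleton. For Dmrt3 they were Sap30l (0.84), a partner of histone deacetylase complexes, Gm4247 (0.78), Prkd1 (0.76), a serine/threonine kinase, Gm15888 (0.76) and 9430060I03Rik (0.76). For Dmrta1 they were Gm47640 (0.76), Gm38101 (0.75), Lrpprc (0.69), a mitochondrial RNA-binding protein, Armc8 (0.69), part of a ubiquitin ligase complex, and Vipr2 (0.68), a neuropeptide receptor. These are the best of at least 17302 genes compared for each, and the points share depth and dissection.

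The other members of the family were mostly low or absent in these brains. The table lists 7 of them, and 4 passed the filter. Dmrtc1b and Dmrtc1c2 had no count in any library and Dmrtc1c1 had 1 count in all. Dmrtc1a had 8 to 20 counts per library and Dmrtc2 had 1 to 10. Dmrtb1, known from the switch to meiosis in the testis, was the exception, with 222 to 392 counts per library. It averaged 248 ± 10.6 normalized counts in WT (n = 5) and 338 ± 59.7 in Nipbl+/- (n = 3), a log2 fold change of 0.44 (SE 0.0953, adjusted P = 0.00753 by edgeR, higher in 3 of 3 libraries), beside 4.25% of all genes called higher. Wapl Δ/+ brains averaged 288 ± 24.7 (n = 7, log2 fold change 0.22, adjusted P = 0.124 by edgeR) and double heterozygotes 299 ± 57.5 (n = 6, log2 fold change 0.28, adjusted P = 0.228 by edgeR). Dmrtc1a and Dmrtc2 were not called in any contrast with WT.

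The surroundings of the Dmrt genes were read from lists of regulators. Of 30 genes for the cortical hem and pallial patterning, 10 were higher and 2 lower in Nipbl+/- than in WT by edgeR, beside 4.25% and 6.96% of all genes, and the median log2 fold change was 0.12 against -0.01 over all genes. Rspo2, a secreted enhancer of Wnt signalling, fell from 247 ± 8.77 normalized counts in WT (n = 5) to 153 ± 13.2 in Nipbl+/- (n = 3), with a log2 fold change of -0.69 (SE 0.0872, adjusted P = 0.000137). Neurog2, the proneural factor of cortical progenitors, rose from 378 ± 40.1 to 606 ± 168.5 (log2 fold change 0.67, adjusted P = 0.00286), although the lowest Nipbl+/- library (417.9) lay within the WT range. Axin2, a feedback target of Wnt signalling, rose by 0.17 (adjusted P = 0.00942) and the selector gene Lhx2 by 0.20 (adjusted P = 0.0142). Emx2, named here after its values were seen because it works with the Dmrt genes in the cortex, rose by 0.25 (SE 0.0621, adjusted P = 0.0170). All of these are edgeR values.

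In Wapl Δ/+ against WT, 1 of the 30 was higher (Axin2, log2 fold change 0.16, adjusted P = 0.0439 by edgeR) and none lower, beside 0.769% and 1.45% of all genes. In double heterozygotes against WT, where 0.812% of all genes were higher and 2.46% lower, Neurog2 was higher (0.56, adjusted P = 0.0391), and Rspo2 (-0.45, adjusted P = 0.0184) and Sp8 (-0.23, adjusted P = 0.0811), a zinc finger factor of forebrain patterning, were lower by edgeR. The list's median log2 fold change was 0.11 in Wapl Δ/+ and 0.12 in double heterozygotes. The means of Rspo2 were low in both groups with a mutant Nipbl allele, as those of Dmrt2 were. The 7 Wapl Δ/+ libraries averaged 247 ± 16.8 normalized counts and the 6 double heterozygotes 179 ± 29.4. Rspo2 was lower in double heterozygotes than in Wapl Δ/+ brains (log2 fold change -0.46, SE 0.0903, adjusted P = 0.0172 by edgeR).

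Of 11 regulators of subpallial progenitors, the ventral counterpart that Dmrta2 and Dmrt3 are known to hold back in the cortex, 8 were higher and none lower in Nipbl+/- than in WT by edgeR, beside 4.25% and 6.96% of all genes. The median log2 fold change was 0.25. Sp9, a zinc finger factor of striatal progenitors, averaged 594 ± 36.9 normalized counts in WT (n = 5) and 791 ± 88.1 in Nipbl+/- (n = 3), a log2 fold change of 0.41 (SE 0.0656, adjusted P = 0.000895). Dlx2 rose by 0.24 (adjusted P = 0.0185) and Dlx6 by 0.30 (adjusted P = 0.0268). These are homeobox regulators of GABAergic neurons. None of the 11 was called in Wapl Δ/+, beside 2.22% of all genes, and the median was 0.18. In double heterozygotes Sp9 was higher (0.35, adjusted P = 0.00204 by edgeR) and Olig2, a factor of oligodendrocyte and motor neuron progenitors, was lower (-0.22, adjusted P = 0.0476 by edgeR), beside 0.812% higher and 2.46% lower over all genes, with a median of 0.14.

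Of 15 genes of the dI6 and V0 interneuron domains, in which Dmrt3 is a marker, 5 were higher and 1 lower in Nipbl+/-, 3 higher and none lower in Wapl Δ/+, and 3 higher and 1 lower in double heterozygotes by edgeR. Over all genes 4.25% were higher and 6.96% lower in Nipbl+/-, 0.769% and 1.45% in Wapl Δ/+, and 0.812% and 2.46% in double heterozygotes. Dbx1, the homeobox gene of V0 progenitors, had 37.4 ± 5.79 normalized counts in WT (n = 5), 99.4 ± 47.0 in Nipbl+/- (n = 3), 64.5 ± 23.0 in Wapl Δ/+ (n = 7) and 76.6 ± 25.4 in double heterozygotes (n = 6). Its log2 fold change against WT was 1.40 (SE 0.229, adjusted P = 0.00101), 0.77 (SE 0.210, adjusted P = 0.0871) and 1.03 (SE 0.201, adjusted P = 0.0103) in that order. Lhx5, a LIM homeobox gene, rose by 0.45 in Nipbl+/- (adjusted P = 0.00165) and by 0.32 in double heterozygotes (adjusted P = 0.0488). Bhlhe22, a basic helix-loop-helix factor of dorsal interneurons, fell by 0.28 on the log2 scale in Nipbl+/- (adjusted P = 0.00354) and fell by 0.25 in double heterozygotes (adjusted P = 0.0171). All P values are from edgeR.

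Of 12 genes of the ventral midbrain and its dopaminergic neurons, 6 were higher and 2 lower in Nipbl+/-, none was called in Wapl Δ/+, and 3 were higher and 2 lower in double heterozygotes by edgeR, beside 11.2%, 2.22% and 3.28% of all genes called in either direction. The 2 lower genes were the same in both. Nr4a2, which maintains dopaminergic neurons, averaged 1228 ± 51.5 normalized counts in WT (n = 5), 961 ± 34.8 in Nipbl+/- (n = 3), 1229 ± 131.9 in Wapl Δ/+ (n = 7) and 932 ± 102.1 in double heterozygotes (n = 6). Its log2 fold change was -0.36 (adjusted P = 0.000182) in Nipbl+/- and -0.39 (adjusted P = 0.00159) in double heterozygotes. Slc6a3, the dopamine transporter, differed from WT by -0.53 (adjusted P = 0.00760) and -0.47 (adjusted P = 0.0266). The higher genes in Nipbl+/- included Foxa1 (0.50, adjusted P = 0.0146), a floor plate factor, and En1 (0.33, adjusted P = 0.0465), a midbrain homeobox gene. All P values are from edgeR.

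The dermomyotome and myogenic list covers the somite setting in which Dmrt2 is best known. Its median log2 fold change against WT was 0.18 in Nipbl+/-, 0.29 in Wapl Δ/+ and 0.20 in double heterozygotes. Over all genes the medians were -0.009, -0.003 and 0.0007. Of 16 genes 15 were tested; Myf5 had 5 counts in all 21 libraries and did not pass the filter. In Nipbl+/- 1 was higher (Pax7, 0.31, adjusted P = 0.0135) and 1 lower (Met, -0.92, SE 0.120, adjusted P = 0.000171) by edgeR, beside 11.2% of all genes. Met, a growth factor receptor that is also used by cortical neurons, averaged 563 ± 62.0 normalized counts in WT (n = 5), 298 ± 77.9 in Nipbl+/- (n = 3), 464 ± 122.4 in Wapl Δ/+ (n = 7) and 343 ± 98.9 in double heterozygotes (n = 6, log2 fold change -0.70, adjusted P = 0.0129 by edgeR). Met was the 1 gene called in double heterozygotes, beside 3.28% of all genes. In Wapl Δ/+ Pax7 was the 1 gene called (0.29, adjusted P = 0.0525 by edgeR), beside 2.22% of all genes. Pax7 is also on the interneuron list, since dorsal brain progenitors use it.

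The list counts depended on which libraries entered. In Nipbl+/- against WT they were 12 for the hem and pallial list, 8 for the subpallial, 6 for the interneuron and 8 for the midbrain list in either direction. In the low mt-Nd3 libraries alone they were 5, 2, 4 and 3, and without the 5 libraries with elevated skeletal muscle markers they were 7, 7, 5 and 7. Leaving out Nipbl+/- replicate 1, the library with the highest Dmrta2 of its group, left 7, 2 and 4 for the hem and pallial, subpallial and midbrain lists, and leaving out Nipbl+/- replicate 2 gave 19 for the hem and pallial list. Of the WT libraries, replicate 5 moved the subpallial count to 5, and replicates 1, 2 and 4 moved the midbrain count to 5, 3 and 5. In double heterozygotes against WT, leaving out replicate 5 gave 14 for the hem and pallial list and 8 for the subpallial list, in place of 3 and 2. With any library left out the counts of that contrast ran from 1 to 14 for the hem and pallial, 1 to 8 for the subpallial, 2 to 6 for the interneuron and 2 to 5 for the midbrain list. In Wapl Δ/+ against WT the interneuron count of 3 was 0 without WT replicate 1, 2, 4 or 5 and 1 without WT replicate 3 or Wapl Δ/+ replicate 4 or 5, and the hem and pallial count of 1 ran from 0 to 3. The other alternatives moved that contrast's hem and pallial count between 0 and 8, the subpallial count between 0 and 5 and the interneuron count between 0 and 6, while the midbrain count was 0 in each of them. These counts describe the lists and are not a test of them.

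**Figure D4:**
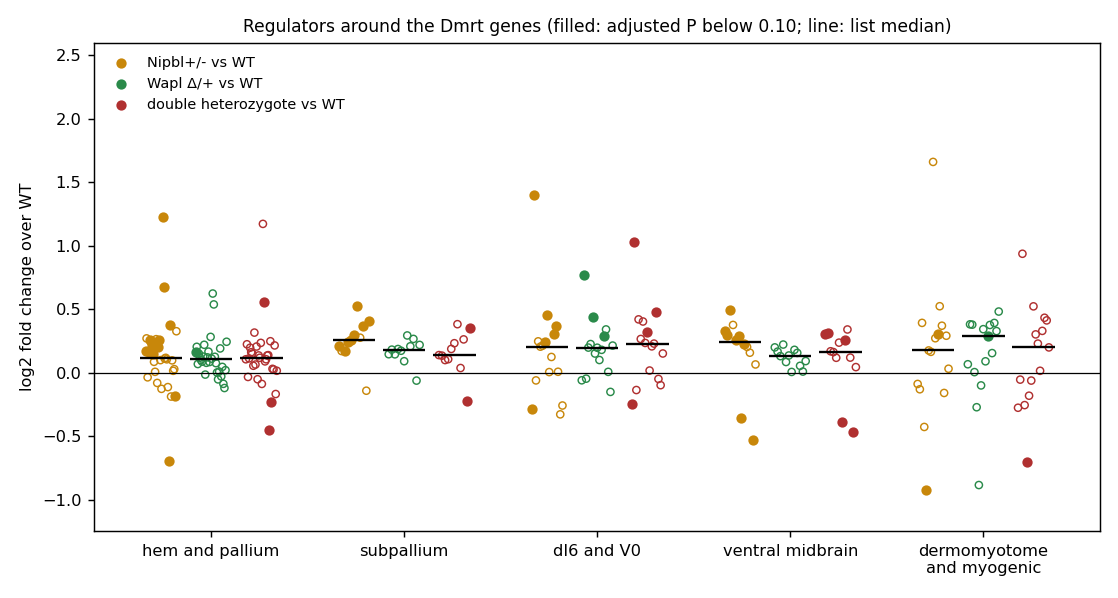
Log2 fold change over WT (vertical axis) of the tested genes of 5 regulator lists (horizontal axis) in Nipbl+/-, Wapl Δ/+ and double heterozygous brains; filled points passed an adjusted P of 0.10 in edgeR, open points did not, and each line is a list's median. The 8 filled points of the subpallial list in Nipbl+/- are all above 0, and the lowest filled point of the 5 lists is Met at -0.92.

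Markers of other tissues were read beside these lists, in contrasts that called 11.2% of all genes in Nipbl+/-, 2.22% in Wapl Δ/+ and 3.28% in double heterozygotes. None of the 15 skeletal muscle markers was called in any contrast with WT, and their summed level ran from 14.3 to 103.9 CPM in WT, 13.7 to 71.5 CPM in Nipbl+/-, 13.4 to 83.5 CPM in Wapl Δ/+ and 13.1 to 87.7 CPM in double heterozygotes. Of 14 cartilage markers 2 were higher and 2 lower in Nipbl+/-. Of 12 meningeal fibroblast markers 1 was higher in Nipbl+/-, 4 in Wapl Δ/+ and 1 in double heterozygotes, and the median of their sum was 605 CPM in WT, 756 CPM in Nipbl+/-, 817 CPM in Wapl Δ/+ and 675 CPM in double heterozygotes. Of 10 choroid plexus markers, tissue that adjoins the cortical hem, 1 was higher and 1 lower in Nipbl+/-, none was called in Wapl Δ/+ and 1 was higher in double heterozygotes. Of 7 blood markers 1 was higher in Nipbl+/-. Of 8 olfactory sensory neuron markers 1 was lower in each contrast with WT. Of 11 tested pituitary markers 1 was higher in Nipbl+/-, 1 lower in Wapl Δ/+ and 1 higher in double heterozygotes. Their part in the differences of the Dmrt genes and regulator lists was not tested.

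As a group the brain identity genes lay at the level of all genes in Nipbl+/- brains, with a median log2 fold change of -0.01 in both. Of the 11, 4 were higher and 1 was lower by edgeR, beside 4.25% and 6.96% of all genes. The higher ones included the progenitor genes Sox2 (0.22, adjusted P = 0.0223) and Nes (0.22, adjusted P = 0.0672), and the lower one was the synaptic vesicle gene Syp (-0.20, adjusted P = 0.0392). None was called in Wapl Δ/+ (2.22% of all genes), and En2, a midbrain and cerebellar homeobox gene, was the 1 gene called in double heterozygotes (0.31, adjusted P = 0.0499 by edgeR; 3.28% of all genes). The part of cell makeup in the Dmrt values was not tested.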

How the data were processed

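Whole brains of 21 female E17.5 embryos were measured by poly(A) RNA-seq. The authors trimmed paired-end reads with cutadapt 2.4, mapped them to mm10 (GRCm38.p6) with STAR 2.5.3a and counted them per gene with featureCounts (Subread 1.6.4). The deposited values are raw counts, 1 column per library. The gene annotation and the strand setting are not given in the sources used here. One Nipbl+/- library, left out by the authors for too few reads, is not analysed here.

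From these counts, the 30552 genes whose normalized counts came to 10 or more across all libraries were fitted in R 4.3.3 with edgeR 4.0.16 (TMM scaling, quasi-likelihood test), each contrast on the libraries of its own groups and the interaction on all 4 groups. P values were adjusted by Benjamini-Hochberg over all genes tested, and genes under 0.10 were called, the threshold of the study. Standard errors are the log2 fold change over the root of the F statistic. The procedure was tested on simulated data. The share of Dmrt2 in Wapl Δ/+ and WT was compared by exact permutation of libraries. Coordinates and gene symbols are from a RefSeq gene table of GRCm38.p6. DESeq2 1.42.0, other scalings, filters and library subsets were run as alternatives. Each brain is a separate embryo, and the labels do not tie embryos to litters. The least different pair of libraries of a group had a chi-square of 2.406 per degree of freedom over genes, so no library was counted as a duplicate.

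The 4 Dmrt genes and the gene lists were chosen with earlier results of these data known. Named genes are the 4, the rest of the family, up to 2 protein-coding neighbours on each side, the 5 genes most like each of the 4 (Pearson, log2 CPM, prior count 2) and, of each list, up to 4 called genes with the smallest P; others are marked where named. A few genes that this rule selects are not reported here.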

Additional observations from a re-analysis of the deposited data

Results flagged for a closer look

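The normalized count of Dmrta1 was examined for a library far from the rest of its group, as were those of the other 3 Dmrt genes. Dmrta1 in double heterozygote replicate 1, at 30.8 normalized counts, stood far above the other 5 double heterozygotes, which lay between 13.7 and 16.8, and its gap to the nearest of them exceeded Dixon's limit for a group of 6. The rule was applied to the WT, Wapl Δ/+ and double heterozygous groups of the 4 genes, and chance alone flags about 5% of such groups. The same library held the highest sum of cartilage markers (427.6 CPM); the part of that tissue in the Dmrta1 value was not tested.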

How the results depend on the processing

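Dmrt2 was chosen for its low values in Nipbl mutants, so the range of its difference is a description: the log2 fold change over the alternatives and with a library left out ran from -1.84 to -1.65 in Nipbl+/- against WT and from -1.29 to -1.04 in double heterozygotes against WT. Of the 4 Dmrt genes, 3 were called in Nipbl+/- against WT, but 1 with all 4 groups in one fit, where Dmrt3 (log2 fold change 0.82, 0.79 in the fit of 2 groups) and Dmrta2 (0.52, against 0.49) lost the call, and 2 to 3 with a library left out (Dmrta2 lost the call without Nipbl+/- replicate 1, at 0.40). Differences near 0 changed sign. Dmrta1 in Nipbl+/- against WT was 0.00728 by DESeq2, 0.00442 with DESeq2's size factors, 0.00456 without the filter, 0.0255 with all groups in one fit, and -0.118 to 0.167 with a library left out. Dmrt2 in Wapl Δ/+ against WT ran from -0.0653 to 0.128 with a library left out. Dmrt3 in double heterozygotes against Wapl Δ/+ was -0.0518 in the low mt-Nd3 libraries and in those whose label writes the Wapl deletion first, which are the same libraries here, and -0.00492 to 0.325 with a library left out. Dmrta2 in that contrast was 0.0180 without the libraries with elevated skeletal muscle markers, an alternative chosen after seeing the data, and -0.120 to 0.0581 with a library left out. The cause was not tested.

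The labels do not say that the replicate numbers pair libraries. Over 25 same-numbered pairs the correlation of deviations ran from -0.272 to 0.450, and 7 exceeded 0.1. The highest value was between replicates 1 of Wapl Δ/+ and Nipbl+/-. Whether same-numbered libraries share a litter or a batch was not tested. With the replicate block, 1 Dmrt gene was called in Wapl Δ/+ against WT in place of 0 (Dmrta2, 0.46, adjusted P = 0.0313 by edgeR, over a range of 0.0313 to 0.428 across alternatives), Dmrt2 there was -0.00727 and Dmrta1 in double heterozygotes against Nipbl+/- was 0.0898. The block changed the call of no other Dmrt gene.

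Over all genes, the number called ranged widely: 3422 in Nipbl+/- against WT (1658 to 4063 under the alternatives, 1828 to 4788 with a library left out), 677 in Wapl Δ/+ (7 to 1991, 9 to 1534), 1001 in double heterozygotes (535 to 1814, 454 to 2504), 2 in double heterozygotes against Nipbl+/- (1 to 59, 1 to 2), 311 against Wapl Δ/+ (24 to 626, 163 to 449), 354 in Nipbl+/- against Wapl Δ/+ (8 to 647, 69 to 600) and 0 for the interaction (0 to 793, 0 to 945). The shares called over all genes move with them. Dmrta1 was not tested under a filter of 1 CPM in 3 libraries. With 11.9 to 70.8 normalized counts for Dmrt2 and Dmrt3, counting error limits differences between groups of 3 to 7 brains.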
